A study of Mus musculus with 9 samples.

Results

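Transcript levels of 10 genes of fatty acid synthesis and desaturation (Srebf1, Fasn, Acaca, Acly, Elovl6, Scd1, Scd2, Fads1, Fads2 and Mid1ip1) were described in cultured mouse valvular interstitial cells, the fibroblast-like cells of the heart valve leaflets. The genes were chosen by symbol for their known roles, and all 10 were found among the 51810 genes of the table. All 10 also passed the filter on low values, set at a 9-library mean of 1 TPM or more, which 13495 genes passed. TPM is the length-corrected share of a gene in all transcripts of a library.

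The cells were isolated from C57BL/6J aortic and mitral valves and were given oxidised low-density lipoprotein (oxLDL) at 50 ug/mL, native LDL at 50 ug/mL, or buffer alone (Control). The exposure lasted 24 h at 37 C and 5% CO2, with 3 libraries per treatment. All 3 treatments shared a medium of DMEM with 10% fetal bovine serum, insulin at 5 ug/mL, EGF at 2 ng/mL and basic FGF at 0.5 ng/mL. One label calls the Control samples untreated, where the treatment protocol gives them buffer. No label states that replicates are separate cultures or animals. The p-values therefore rest on the spread among these libraries alone, possibly a technical one.

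Cells make fatty acids in the cytosol from acetyl-CoA, which is carboxylated to malonyl-CoA and condensed stepwise to palmitate, then lengthened and given double bonds by enzymes of the endoplasmic reticulum. SREBP1, made from Srebf1, is a membrane-bound transcription factor that is cut free to switch on these enzymes, and its relative SREBP2 serves mainly the genes of cholesterol synthesis and uptake. Both are held back when sterols accumulate, polyunsaturated fatty acids lower SREBP1 activity, and insulin raises it. Cells that take up lipoproteins receive cholesterol and fatty acids from them.

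The 10 genes lie on 4 mouse chromosomes, 4 of them on chromosome 11 (Srebf1, Fasn, Acaca and Acly) and 4 on chromosome 19, with Elovl6 on chromosome 3 and Mid1ip1 on chromosome X. On chromosome 19 the desaturase genes form neighbouring pairs. Scd2 (chr19:44293674-44306864, plus strand) and Scd1 (chr19:44394455-44407879, minus strand) were 87.6 kb apart, and Fads2 (chr19:10062765-10101746, minus strand) and Fads1 (chr19:10182888-10196877, plus strand) 81.1 kb apart, in the GENCODE M21 annotation of GRCm38. Scd2 and Scd1 have near copies of one coding sequence, with 968 identical bases of 1067 aligned (90.7%) and an identical run of 147 bases, longer than the 100-base reads. Of the 100-base stretches of the longest Scd2 transcript 48 of 5356 (0.896%) also occurred in Scd1, so few reads could be shared by the pair. Fads2 and Fads1 had 69.3% identical coding bases and no identical run above 17 bases. The coding stretch where the Scd genes differ most, coding bases 112 to 171 of Scd2 and 103 to 162 of Scd1, is shown because it lets reads tell the 2 genes apart, with the 18 differing bases in capitals.
Scd2: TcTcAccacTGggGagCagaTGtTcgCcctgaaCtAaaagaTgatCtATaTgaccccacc
Scd1: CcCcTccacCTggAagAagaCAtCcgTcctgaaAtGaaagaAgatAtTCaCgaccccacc

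Promoter sequences from RefSeq (GRCm38.p6) were at hand for 7 of the 10 genes, with 9 start sites, 3 of them for Srebf1. Not matched were Scd1, Scd2 and Fads1. The 250 bases before the start are shown for Fasn (chr11:120824548-120824797, minus strand, upstream of the gene), for the Srebf1 start farthest along the gene (chr11:60210472-60210721, minus strand, intronic in Srebf1) and for Acly (chr11:100528001-100528250, minus strand, upstream of the gene), because these windows overlap no annotated exon and differ in what they hold. Capitals mark matches on either strand to TCACNC, the core of the sterol element bound by SREBP, and to CCAAT, the box of its partner NF-Y.
Fasn: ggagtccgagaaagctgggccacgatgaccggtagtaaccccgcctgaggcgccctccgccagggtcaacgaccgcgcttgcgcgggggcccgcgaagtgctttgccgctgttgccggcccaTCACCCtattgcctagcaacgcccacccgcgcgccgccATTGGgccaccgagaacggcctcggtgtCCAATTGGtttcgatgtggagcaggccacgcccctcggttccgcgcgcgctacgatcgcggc
Srebf1: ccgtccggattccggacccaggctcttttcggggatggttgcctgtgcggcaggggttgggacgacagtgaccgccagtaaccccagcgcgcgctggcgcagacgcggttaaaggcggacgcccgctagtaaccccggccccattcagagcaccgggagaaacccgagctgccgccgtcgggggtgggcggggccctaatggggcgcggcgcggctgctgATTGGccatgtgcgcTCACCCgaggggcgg
Acly: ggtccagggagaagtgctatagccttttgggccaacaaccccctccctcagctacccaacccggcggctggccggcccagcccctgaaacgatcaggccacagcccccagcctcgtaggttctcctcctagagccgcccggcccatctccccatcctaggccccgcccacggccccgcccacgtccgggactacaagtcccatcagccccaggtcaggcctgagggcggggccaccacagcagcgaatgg

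The Fasn window held TCACNC 128 bases before the start and CCAAT at 3 places, of which 2 overlap in a palindrome. The Srebf1 window held CCAAT 30 bases and TCACNC 15 bases before its start. The Acly window held neither, and 4 copies of GGGCGG, the box of the factor Sp1. GGGCGG also occurred in the Srebf1 window, 65 and 6 bases before its start. Over all 9 windows, read on both strands, TCACNC occurred in 3 against 37.6% of 32851 RefSeq windows of the same length, CCAAT in 3 against 33.8%, and GGGCGG in 5 against 32.7%. The longer sterol element TCACNCCAC, which contains TCACNC, occurred in 0 of the 9 and in 1.05% of all windows, and the E-box CACGTG in 0 and in 6.02%. These are matches of letters and not evidence of binding.

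The LDL comparison with Control asked how the cells respond to native lipoprotein, and the genes of fatty acid synthesis and desaturation lay lower with it. Elovl6, the elongase that turns palmitate into stearate, and Mid1ip1, which helps acetyl-CoA carboxylase to polymerise, fell at an adjusted p under 0.05 over all genes tested (limma on log2(TPM + 1), Benjamini-Hochberg). These 2 of 10 stood against 0.156% of all tested genes that fell by the same rule. Same-numbered libraries deviated in like ways over all genes, and when this number entered the fit as a block 7 of the 10 fell, against 0.415% of all genes. The 5 that fell only with the block were Srebf1, Fasn, Scd2, Fads1 and Fads2. Without the block the count was 0 when LDL 2 or LDL 3 was left out and 1 when any other library was. With it the count was 1 without Control 1, 2 without LDL 2, 3 without Control 2, LDL 3 or oxLDL 1, and 4 without LDL 1. For 9 of the 10 genes, all but Acaca, each LDL library lay below each Control library, as did 5.06% of the tested genes. At an unadjusted p under 0.05 the same 9 were lower, against 3.03% of all genes, and all 10 means were lower, as were 50.5% of means over all genes. The median log2 change was -0.60 over the 10 genes and 0.00 over all tested genes.

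The summed level of the 10 genes was 574, 591 and 679 TPM in the oxLDL libraries in rising order, 468, 485 and 494 TPM in the LDL libraries, and 698, 760 and 942 TPM in the Control libraries. The 3 treatments did not overlap in this sum, with LDL lowest and oxLDL between LDL and Control. The gap between oxLDL and Control was narrow, from 679 to 698 TPM. Gene by gene, 4 of the 10 had every oxLDL library below every Control library, against 3.83% of all tested genes. The sum weighs abundant genes most. In bulk RNA, fewer cells of a type and less RNA per cell cannot be told apart.

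**Figure D1:**
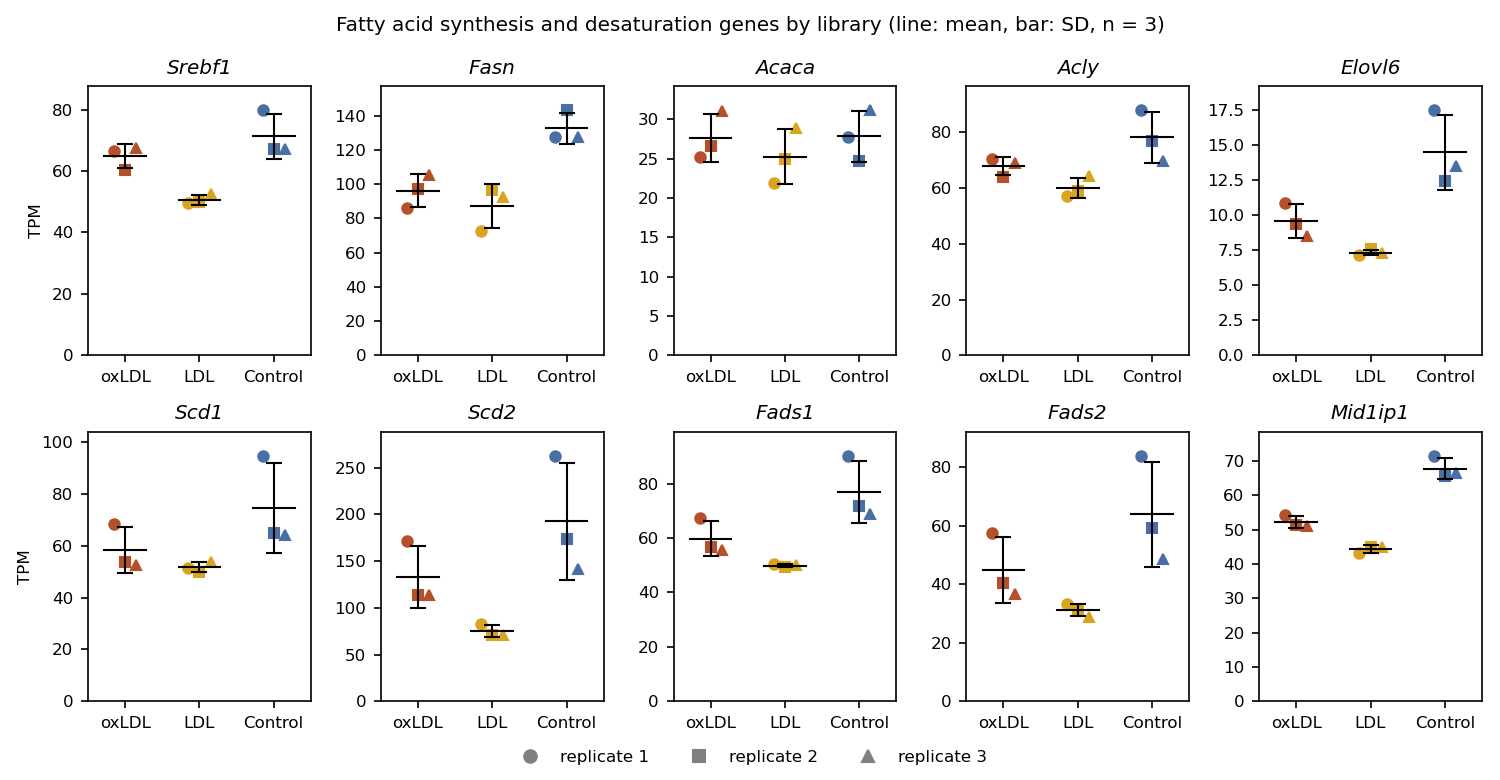
TPM of each of the 10 genes in the 9 libraries (points, shaped by replicate number) for oxLDL, LDL and Control, with the mean (line) and SD (bar) of 3 libraries. In 9 of the 10 panels the LDL points all lie below the Control points, and in all 10 the oxLDL mean lies between the other two.

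Srebf1 (chr11:60199089-60222581), the gene of the transcription factor SREBP1, had 66.7, 60.4 and 67.4 TPM in oxLDL libraries 1 to 3, 49.5, 49.8 and 52.6 TPM in LDL libraries and 79.7, 67.1 and 67.0 TPM in Control libraries. The LDL libraries were all lower than those of the other treatments, while oxLDL and Control overlapped. Its log2 change with LDL was -0.48 (95% CI -0.67 to -0.29, adjusted p = 0.071, and 0.035 with the block). In oxLDL it differed from Control by -0.13 (95% CI -0.32 to 0.06, adjusted p = 1). Between oxLDL and LDL the difference was 0.35 (95% CI 0.16 to 0.54, adjusted p = 0.49). The LDL mean differed from the Control mean by -29.0%. Of its exons, 109 bases (1.94%) overlap those of Rai1 on the other strand, which averaged 26.0 TPM.

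Acly, ATP citrate lyase, splits citrate to supply acetyl-CoA in the cytosol. It had 70.4, 64.0 and 68.9 TPM in oxLDL libraries, 57.1, 59.0 and 64.1 TPM in LDL libraries and 87.7, 76.9 and 69.8 TPM in Control libraries. All LDL libraries lay below all Control libraries, by the narrow gap between 64.1 and 69.8 TPM. The log2 difference with LDL was -0.37 (95% CI -0.58 to -0.16) and did not pass (adjusted p = 0.24, and 0.13 with the block). With oxLDL it differed from Control by -0.20 (95% CI -0.40 to 0.01, adjusted p = 1).

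Acaca encodes acetyl-CoA carboxylase 1, the malonyl-CoA-making enzyme that commits carbon to fatty acid synthesis. It had 25.2, 26.6 and 31.0 TPM in oxLDL libraries, 21.9, 24.9 and 28.8 TPM in LDL libraries and 27.7, 24.6 and 31.1 TPM in Control libraries. The 3 treatments overlapped, and replicate 3 was the highest in each of them. The log2 difference was -0.14 with LDL (95% CI -0.42 to 0.15, adjusted p = 1) and -0.01 with oxLDL (95% CI -0.30 to 0.28, adjusted p = 1). The LDL interval includes the difference of -0.37 measured for Acly.

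Mid1ip1 had 54.3, 51.5 and 50.9 TPM in oxLDL libraries, 43.1, 44.95 and 45.1 TPM in LDL libraries and 71.4, 65.6 and 66.6 TPM in Control libraries. The 3 treatments were fully separated. It fell with LDL by 0.60 on the log2 scale (95% CI -0.74 to -0.46, adjusted p = 0.010), a 1.53-fold lower level. Without LDL 2 or LDL 3 the adjusted p was 0.059 and 0.058. With oxLDL it differed from Control by -0.37 (95% CI -0.51 to -0.23) and did not pass (adjusted p = 0.23, and 0.083 with the block). An antisense model on the other strand overlaps 25.5% of its exonic bases and averaged 0.122 TPM.

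Fasn encodes fatty acid synthase, which builds palmitate from malonyl-CoA. It had 86.2, 97.0 and 106 TPM in oxLDL libraries, 72.4, 96.5 and 92.3 TPM in LDL libraries and 127, 143 and 127 TPM in Control libraries. Both lipoproteins gave libraries below all Control libraries, and oxLDL and LDL overlapped. The log2 change with LDL was -0.61 (95% CI -0.88 to -0.34, adjusted p = 0.11, and 0.019 with the block). With oxLDL the difference was -0.46 (95% CI -0.73 to -0.19, adjusted p = 0.79, and 0.13 with the block), and between oxLDL and LDL it was 0.15 (95% CI -0.12 to 0.42, adjusted p = 1).

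Elovl6 (chr3:129532355-129638495) was the least abundant of the 10 in every treatment. It had 10.9, 9.33 and 8.49 TPM in oxLDL libraries, 7.13, 7.55 and 7.30 TPM in LDL libraries and 17.5, 12.4 and 13.5 TPM in Control libraries. The 3 treatments did not overlap. With LDL it fell by 0.88 on the log2 scale (95% CI -1.18 to -0.58, adjusted p = 0.034), to 7.33 ± 0.211 TPM against 14.5 ± 2.65 TPM in Control (SD, n = 3 each), a 1.97-fold lower level. This call ended when any 1 of the 9 libraries was left out, with adjusted p between 0.050 and 0.20, and under another scaling of the libraries. With oxLDL it differed from Control by -0.54 (95% CI -0.84 to -0.24, adjusted p = 0.69).

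Scd1 and Scd2 encode stearoyl-CoA desaturases, which put the first double bond into palmitate and stearate. Scd2 had 172, 114 and 114 TPM in oxLDL libraries, 82.4, 71.4 and 71.1 TPM in LDL libraries and 262, 174 and 141 TPM in Control libraries. The LDL libraries were far below the others, oxLDL and Control overlapped, and replicate 1 was the highest in each treatment. The log2 change of Scd2 with LDL was -1.30 (95% CI -1.82 to -0.79, adjusted p = 0.072, and 0.0045 with the block), a 2.57-fold lower level and the greatest change among the 10 genes. With oxLDL it differed from Control by -0.51 (95% CI -1.02 to 0.01, adjusted p = 1, and 0.28 with the block). Its difference between oxLDL and LDL was 0.80 (95% CI 0.28 to 1.31, adjusted p = 0.68, and 0.060 with the block).

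Scd1 had 68.5, 53.9 and 52.7 TPM in oxLDL libraries, 51.4, 50.0 and 53.9 TPM in LDL libraries and 94.6, 65.0 and 64.3 TPM in Control libraries. The LDL libraries lay below all Control libraries and overlapped with oxLDL. Its log2 difference with LDL was -0.50 (95% CI -0.85 to -0.14) and did not pass (adjusted p = 0.42, and 0.11 with the block). With oxLDL it differed from Control by -0.34 (95% CI -0.69 to 0.02, adjusted p = 1).

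The proportion of Scd2 to Scd1 in TPM within a library is not changed by a single scaling factor per library. Scd2 transcripts were 2.505, 2.12 and 2.15 times as abundant as Scd1 in oxLDL libraries, 1.60, 1.43 and 1.32 times in LDL libraries and 2.77, 2.68 and 2.20 times in Control libraries. Every LDL library was below every library of the other treatments. The log2 ratio averaged 0.52 ± 0.14 with LDL and 1.33 ± 0.18 in Control (SD, n = 3 each), a difference of -0.81 (two-sided exact permutation test, p = 0.1, the smallest that 3 against 3 allow). Between oxLDL and LDL it differed by 0.64 (exact permutation p = 0.1) and between oxLDL and Control by -0.17 (exact permutation p = 0.2). No p was adjusted over the 6 ratio comparisons made, since none could pass.

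**Figure D2:**
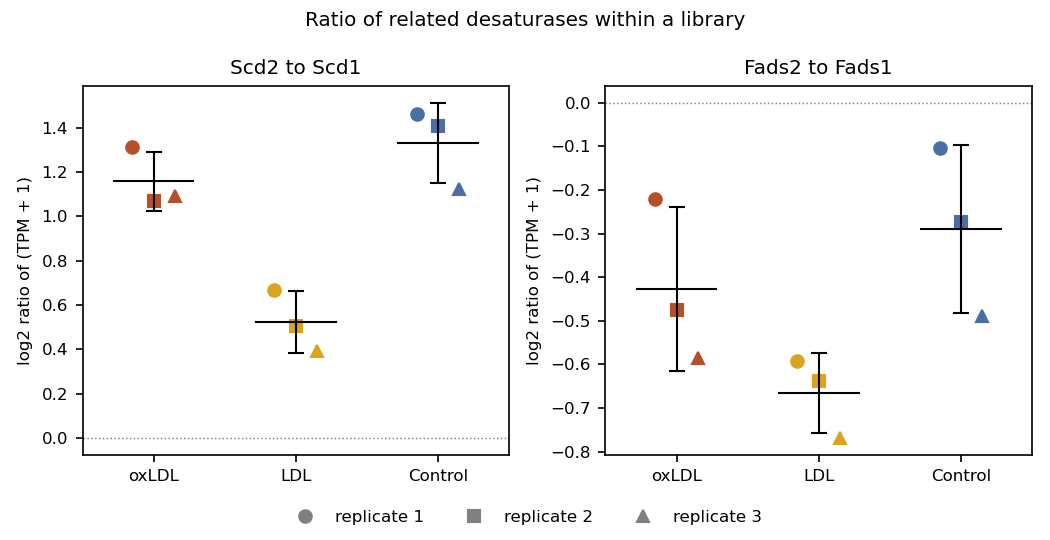
Log2 ratio of Scd2 to Scd1 (left) and of Fads2 to Fads1 (right), as log2(TPM + 1) differences within each library, for oxLDL, LDL and Control; points are libraries, lines means and bars SD of 3. For both pairs the 3 LDL libraries lie lowest, at 0.39 to 0.67 and at -0.77 to -0.59. For Fads2 to Fads1 this is nearly a tie, with LDL 1 at -0.591 and oxLDL 3 at -0.586.

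Fads1 and Fads2 encode the delta-5 and delta-6 desaturases of polyunsaturated fatty acid synthesis, with Fads2 acting at the first step. Fads2 had 57.7, 40.5 and 36.6 TPM in oxLDL libraries, 33.1, 31.3 and 28.9 TPM in LDL libraries and 83.8, 59.3 and 48.8 TPM in Control libraries. The LDL libraries were the lowest, and oxLDL and Control overlapped. Its log2 change with LDL was -0.98 (95% CI -1.46 to -0.51, adjusted p = 0.16, and 0.012 with the block), a 2.06-fold lower level. With oxLDL it differed from Control by -0.49 (95% CI -0.96 to -0.02, adjusted p = 1, and 0.25 with the block).

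Fads1 had 67.3, 56.7 and 55.5 TPM in oxLDL libraries, 50.4, 49.2 and 49.9 TPM in LDL libraries and 90.1, 71.9 and 68.9 TPM in Control libraries. The 3 treatments did not overlap. Its log2 change with LDL was -0.61 (95% CI -0.86 to -0.35, adjusted p = 0.087, and 0.017 with the block), and with oxLDL it differed from Control by -0.35 (95% CI -0.60 to -0.10, adjusted p = 1, and 0.22 with the block). The log2 ratio of Fads2 to Fads1 averaged -0.67 ± 0.09 with LDL and -0.29 ± 0.19 in Control (SD, n = 3 each), a difference of -0.38 (two-sided exact permutation p = 0.1). It averaged -0.43 ± 0.19 with oxLDL, 0.24 above LDL (exact permutation p = 0.1) and -0.14 from Control (exact permutation p = 0.5). The ratios of LDL 1 (-0.591) and oxLDL 3 (-0.586) nearly met.

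The oxLDL comparison with Control asked how the cells respond to the oxidised lipoprotein. The mean with oxLDL was below that of Control for all 10 genes, as for 50.9% of the tested genes, and 0 of the 10 passed in limma without or with the block. Over all tested genes 0.0148% passed, all of them higher, and 0.126% with the block. At an unadjusted p under 0.05, 5 of the 10 were lower (Fasn, Elovl6, Fads1, Fads2 and Mid1ip1), against 2.07% of all tested genes. Fasn, Elovl6, Fads1 and Mid1ip1 had every oxLDL library below every Control library, against 3.83% of all genes. The median log2 difference was -0.36 over the 10 genes and 0.00 over all.

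The oxLDL comparison with LDL tested directly whether the oxidised and native forms differ. All 10 genes had higher means with oxLDL, as did 50.3% of tested genes, and 0 of the 10 passed in limma without or with the block, while 0.104% and 0.259% of all genes did. At an unadjusted p under 0.05, 6 of the 10 were higher (Srebf1, Elovl6, Scd2, Fads1, Fads2 and Mid1ip1), against 1.60% of all genes, and the same 6 had every oxLDL library above every LDL library, against 4.11%. The median log2 difference was 0.24, and the widest was that of Scd2. The mean with oxLDL lay between those of LDL and Control for 10 of 10 genes and for 20.9% of all tested genes. All 3 comparisons reuse the same libraries, so they are not independent of each other.

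**Figure D3:**
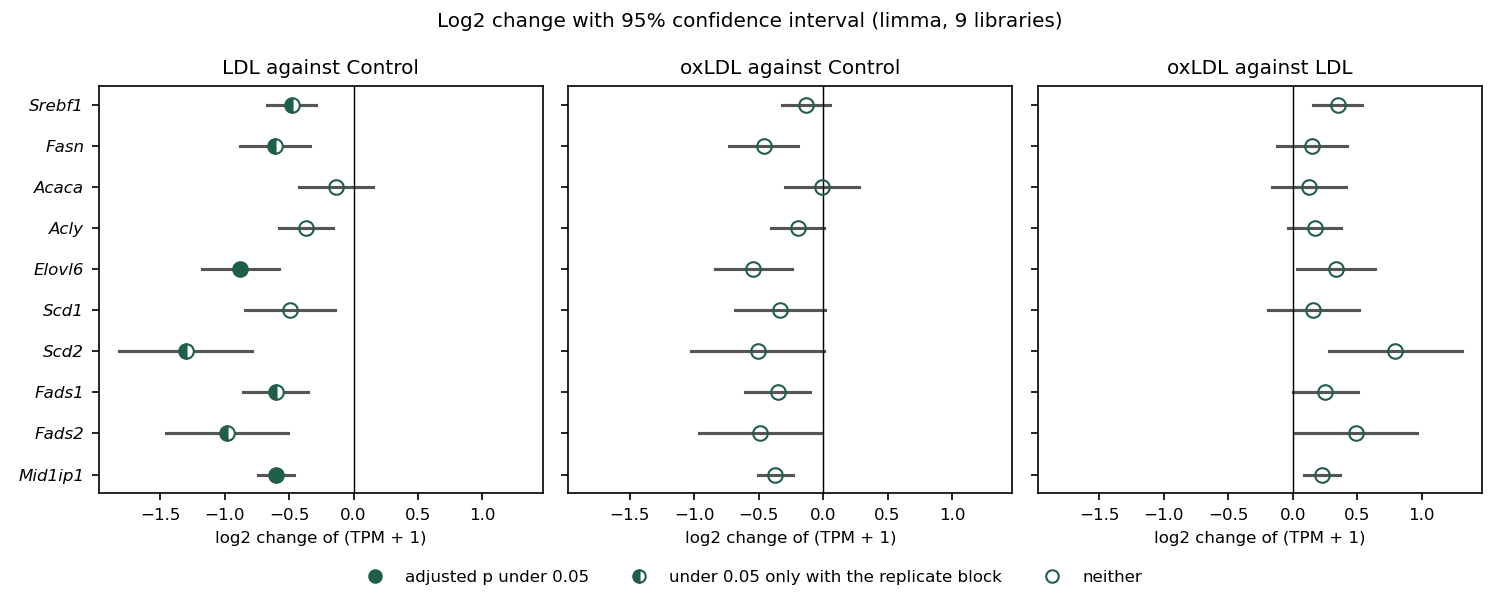
Log2 change of (TPM + 1) of each gene (points) with its 95% confidence interval (lines) in the 3 comparisons, with filled points for an adjusted p under 0.05 and part-filled points for one under 0.05 only with the replicate block. With LDL, 2 points are filled and 5 part-filled, and in the other 2 panels none is.

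Between libraries with the same replicate number, LDL was lower than Control in 29 of 30 pairs over the 10 genes, the exception being Acaca in replicate 2. With oxLDL 28 of 30 pairs were lower than Control, the exceptions being Acaca in replicate 2 and Srebf1 in replicate 3. The oxLDL library was above its LDL partner in 29 of 30 pairs, the exception being Scd1 in replicate 3. The 30 pairs are 10 genes in the same 3 pairs of libraries, so they are not 30 independent observations. They restate the values above, and the share over all tested genes was not computed.

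The order of the genes by TPM changed at the top. Scd2 was the most abundant of the 10 with oxLDL (133 ± 33.4 TPM) and in Control (192 ± 62.5 TPM), and with LDL Fasn (87.1 ± 12.8 TPM) had a higher mean than Scd2 (75.0 ± 6.41 TPM; SD, n = 3 each). The libraries of Fasn and Scd2 overlapped with LDL and in Control, and did not with oxLDL. Below these, Acly, Srebf1, Fads1, Scd1 and Mid1ip1 had means of 44.4 to 78.1 TPM in all 3 treatments. In Control each of these genes overlapped with the next in order. Fads2, Acaca and Elovl6 followed in that order in each treatment, with no overlap between neighbours among these 3. In Control, Scd2 lay at the 94.1st percentile of the tested genes, Fasn at the 90.9th and Elovl6 at the 43.3rd.

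The libraries of a treatment did not vary alike for all 10 genes. Control 1 had the highest of the 3 Control values for 8 of the 10 genes and oxLDL 1 the highest of the oxLDL values for 7. In Control 1, Scd2 stood 0.49 and Fads2 0.42 above the Control mean on the log2 scale, and in oxLDL 1 they stood 0.39 and 0.38 above the oxLDL mean. Fasn and Acaca did not share this, with deviations of -0.06 and 0.00 in Control 1 and of -0.15 and -0.12 in oxLDL 1. Over the 9 libraries, which share their treatment means and their column scaling, deviations of Scd1, Scd2, Fads1 and Fads2 correlated at 0.909 to 0.986 in the 6 pairs among them. Those of Fasn with the same 4 genes correlated at -0.488 to -0.40, and those of Acaca at -0.542 to -0.162. The likeness was not confined to the desaturases. Elovl6 correlated with Scd1 at 0.935 and Mid1ip1 with Scd1 at 0.905. Over all 45 pairs of the 10 genes the median was 0.719, with 33 above 0. The median deviation of all tested genes in Control 1 was -0.01. Without Control 1 the median log2 change of the 10 genes was -0.53 with LDL and -0.25 with oxLDL, and 1 gene, Mid1ip1, fell with LDL without the block and 1 of the 10 with it.

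**Figure D4:**
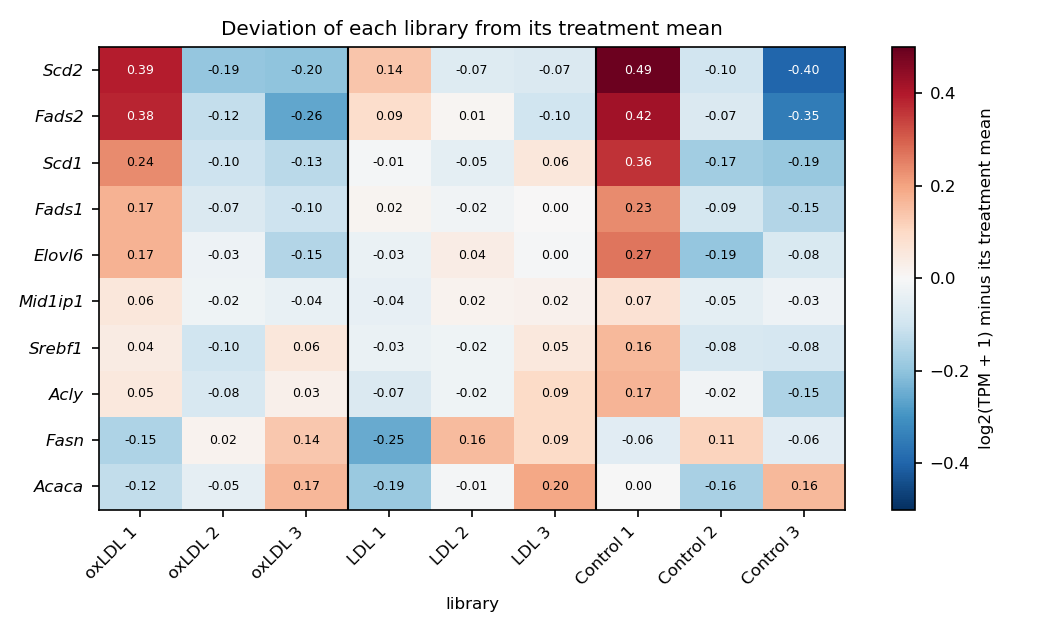
Deviation of each library (columns) from the mean of its treatment for each gene (rows), as log2(TPM + 1); red is above and blue below the treatment mean. Scd2, Fads2, Scd1, Fads1 and Elovl6 are red in oxLDL 1 and Control 1, by 0.17 to 0.49. Srebf1, Acly and Mid1ip1 are above the mean there by 0.04 to 0.17, and Fasn and Acaca are not.

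Other genes of the pathway were read from 5 lists, of which 36 of 46 genes passed the filter. With LDL 3 of the 36 fell, Srebf2 and Insig1 among them, against 0.156% of all tested genes, and 0 rose. The median log2 change of the 36 was -0.06. Insig1, which retains SREBP in the endoplasmic reticulum, fell by 1.43 (adjusted p = 0.043), and Srebf2, the gene of SREBP2, by 0.94 (adjusted p = 0.017). The count of 3 was 1 without Control 1, Control 2, LDL 2 or LDL 3. With oxLDL against Control 0 of the 36 passed without the block and 1 with it, against 0.0148% and 0.126% of all tested genes. With oxLDL against LDL 1 passed without the block and 2 with it, Srebf2 being added, against 0.104% and 0.259% of all tested genes. The difference of Srebf2 was 0.59 (adjusted p = 0.20, and 0.018 with the block).

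The remaining SREBP1 control genes did not pass in any comparison. Scap, the escort of SREBP, had a log2 difference of 0.17 with LDL (adjusted p = 0.61) and Insig2, a relative of Insig1, of 0.15 (adjusted p = 0.97). The LXR receptors, which switch on Srebf1, averaged 54.7 ± 3.51 TPM with oxLDL, 58.8 ± 0.993 TPM with LDL and 56.6 ± 2.92 TPM in Control for Nr1h2 (SD, n = 3 each). Nr1h3 averaged 7.33 ± 0.926 TPM with oxLDL, 7.53 ± 1.31 TPM with LDL and 7.78 ± 0.707 TPM in Control. Of the SREBP1-linked lipid genes that did not pass, Gpam, which starts glycerolipid synthesis, differed by -0.27 with LDL (adjusted p = 0.81) and Dgat2, which completes triglycerides, by 0.25 (adjusted p = 1).

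Of 7 genes of acetyl-CoA and malonyl-CoA supply 0 passed. Slc25a1, which exports citrate from mitochondria, differed by -0.41 with LDL (adjusted p = 0.56) and Me1, the malic enzyme that makes NADPH, by 0.26 (adjusted p = 0.63). Of 9 tested elongation genes 0 passed, and Elovl4, an elongase of very long chains, differed by 0.31 (adjusted p = 0.95) and Elovl5, an elongase of polyunsaturated chains, by -0.24 (adjusted p = 0.23). Of 5 further desaturation genes 0 passed, and Cyb5b, a cytochrome b5, and Cyb5r3, a cytochrome b5 reductase, differed by -0.25 (adjusted p = 0.26) and -0.20 (adjusted p = 0.54) with LDL. Cyb5a, the more abundant cytochrome b5, lay the other way, with 647 ± 45.4 TPM with oxLDL, 597 ± 59.8 TPM with LDL and 525 ± 36.2 TPM in Control (SD, n = 3 each). Its log2 difference from Control was 0.30 with oxLDL (unadjusted p = 0.010, adjusted p = 1.0, every oxLDL library above Control) and 0.18 with LDL (adjusted p = 0.85). Fads3, the third gene of the Fads cluster, averaged 127 ± 1.86 TPM with oxLDL, 113 ± 4.10 TPM with LDL and 124 ± 1.62 TPM in Control and did not pass.

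Several relatives of the 10 genes were hardly detected. Scd3 and Scd4 averaged at most 0.01 and 0.207 TPM in any treatment, Thrsp, a relative of Mid1ip1, at most 0.203 TPM, and Mlxipl, the carbohydrate-responsive factor of lipogenesis, at most 0.15 TPM. Acacb, the carboxylase of the mitochondrial surface, averaged 1.84 ± 0.291 TPM with oxLDL, 1.86 ± 0.0777 TPM with LDL and 2.03 ± 0.451 TPM in Control, beside 25.2 to 27.8 TPM for Acaca.

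The 20 genes of cholesterol synthesis, given for scale, had a median log2 change of -1.0 with LDL (11 fell, and 18 with the block) and of -0.69 with oxLDL (0 passed in limma and 7 with the block, and 18 were lower at an unadjusted p under 0.05). Over all tested genes 0.156% fell with LDL, and 0.415% with the block. With oxLDL 0.0148% of all genes passed, 0.126% with the block, and 2.07% were lower at an unadjusted p under 0.05. The medians of the 10 genes of fatty acid synthesis and desaturation were -0.60 and -0.36.

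**Figure D5:**
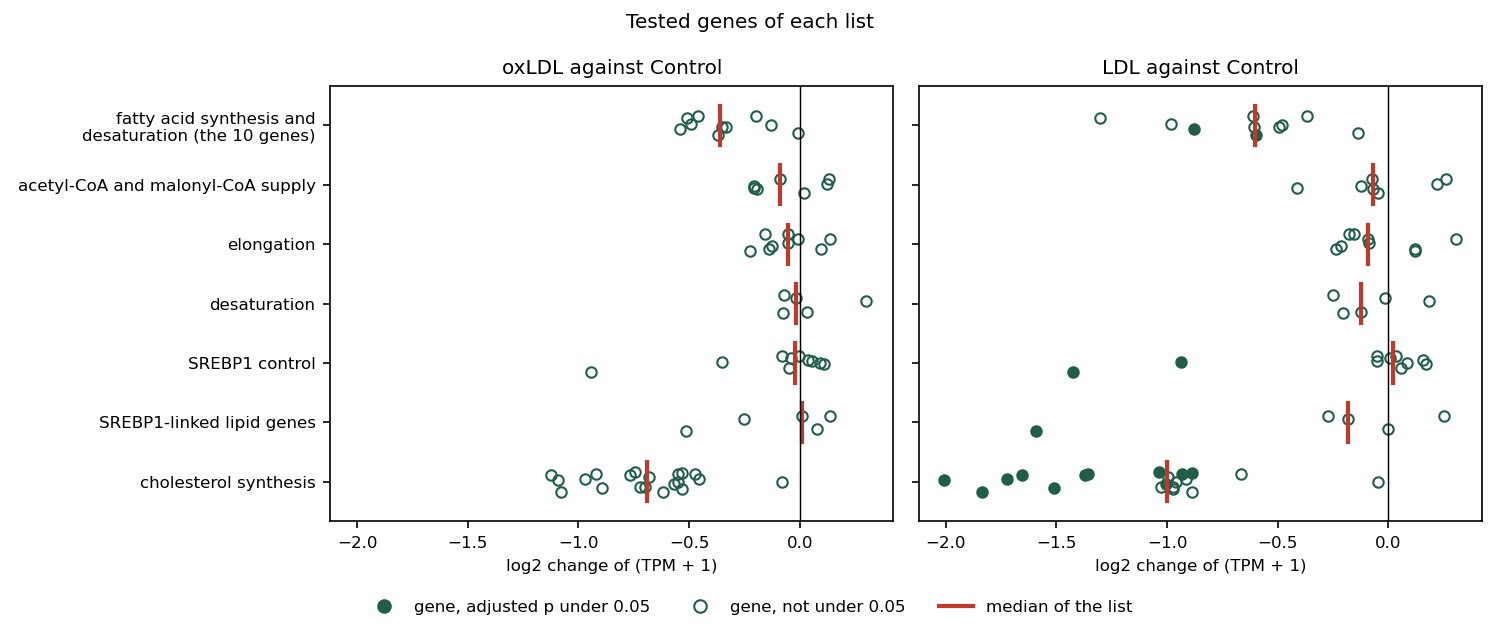
Log2 change of (TPM + 1) of the tested genes (circles, filled at an adjusted p under 0.05) of each list with oxLDL (left) and with LDL (right) against Control, with the list median as a red line. The 10 genes have medians of -0.36 and -0.60, the 5 lists of other pathway genes have medians of -0.18 to 0.02, and cholesterol synthesis has -0.69 and -1.0.

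Leaving out the 10 genes themselves, clone-named models and pseudogenes, the tested genes most like each of the 10 over the 9 libraries were sought. They were found by Pearson's r of log2(TPM + 1), 3 for each. These 30 entries held 24 different genes with r of 0.93 to 0.99. Of the entries 12, or 8 different genes, were of the cholesterol list, which holds 20 of the 13495 tested genes. Outside the 10 genes, nearest to Scd2 were Srebf2 (0.976) and Fdps, and nearest to Fads1 were Insig1 (0.99), Idi1 (0.984) and Cyp51 (0.983). Scd2 and Fads2, both of the 10, correlated with each other at 0.987. Elovl6 lay closest to Sc5d, Stard4 and Sqle, and Mid1ip1 to Stard4, Elovl5 and Sqle. Nearest to Fasn were Lss (0.96), Pygb (0.937) and Papss1 (0.93), and to Srebf1 were Abcb10 (0.969) and Tmem41b (0.957). Acaca had Maz, Dmxl2 and Gps2 as its nearest, none of them on the cholesterol list. The libraries share treatments, so these values describe likeness only.

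Markers of valvular interstitial and fibroblast cells were all present, 11 of 11 with a mean of at least 1 TPM, and summed to 21117 to 22917 TPM with oxLDL, 19607 to 22826 TPM with LDL and 22141 to 23812 TPM in Control. Of 7 adipocyte markers only Fabp4 reached a mean of 1 TPM, Cfd was listed at 0 in all libraries, and the list summed to 11.3 to 31.7, 17.95 to 33.2 and 18.1 to 25.8 TPM in the same order. Macrophage and leukocyte markers (7 of 7 present) summed to 98.1 to 622, 218 to 614 and 218 to 426 TPM. Endothelial markers (5 of 5) summed to 80.4 to 171, 79.2 to 178 and 77.0 to 165 TPM. Cdh5 was highest in replicate 1 of each treatment, at 97.7 TPM with oxLDL, 101 TPM with LDL and 88.6 TPM in Control. So were Pecam1, Tek and Kdr, while Vwf was not. The part of this in the deviations of replicate 1 was not tested. Of the valvular interstitial and fibroblast markers 0 of 11 passed with LDL in limma. At an unadjusted p under 0.05, 2 of these 11 were lower, against 3.03% of all tested genes. Acta2, smooth muscle actin, had 589 ± 63.1 TPM with LDL and 832 ± 102 TPM in Control (SD, n = 3 each), a log2 difference of -0.50 (adjusted p = 0.21), with every LDL library below Control. Vim, vimentin, differed by -0.26 (adjusted p = 0.58), and the part of both in the results was not tested. On the log2(TPM + 1) scale the means of all 7 macrophage markers were higher and those of all 5 endothelial markers lower with LDL than in Control (in TPM 4 of 5, Cdh5 being higher), 0 of them passed in limma (0 also at an unadjusted p under 0.05), and their part in the results was not tested. Cardiomyocyte markers (1 of 4 present, Tnnt2) summed to 9.73 to 33.4, 13.7 to 40.6 and 10.0 to 63.4 TPM, and melanocyte markers (2 of 4) to 2.64 to 13.6, 4.56 to 16.9 and 3.36 to 7.74 TPM.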

How the data were processed

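The authors deposited TPM values, per the file headers 1 column per library. The submitters' processing notes name STAR (no version), RSEM 1.3.1 and mm10; no annotation is named there. Per the labels' protocols, 50 ng of total RNA was amplified to cDNA, prepared with an unstranded kit and read as 100-base pairs. Strand therefore cannot tell which gene a read comes from where exons on opposite strands overlap. TPM keeps no depth, so the depth of each library is unknown and intervals for counting error are not given.

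Values were analysed as log2(TPM + 1), which understates changes of low genes, over 13495 genes whose 9-library mean reached 1 TPM (38315 left out). Tests used limma 3.58.1 (R 4.3.3, lmFit, contrasts.fit, eBayes with a trend) on all 9 libraries, with 6 residual degrees of freedom. They were two-sided, with Benjamini-Hochberg adjustment over all genes tested and a threshold of 0.05. The fit without the block was checked on simulated data. The simulated libraries were independent, so the check does not cover likeness by replicate number or the block. Every adjusted p is limma's. The genes, lists, tests and rule for naming (all 10 genes; of each other list up to 4 called and up to 2 that did not pass; the 3 nearest patterns) were chosen with earlier results of these data known. Some further genes, such as Fads3, Cyb5a, Acta2, Vim, Nr1h2 and the relatives near 0 TPM, were named after their values were seen.

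Replicate numbers come from the titles. Deviations from the treatment means had correlations of 0.172 to 0.497 within the 9 same-numbered pairs, against -0.309 to 0.13 over the 18 pairs of unlike number. The deviations sum to 0 within a treatment, so the 18 pairs are not an independent reference for the 9. The numbers are taken to pair the samples on this basis alone, from the same data as the calls. No label names a shared culture. The fit without the block is the main one, and blocked values (4 residual degrees of freedom) stand beside it where they bear on a call. Alternatives were the pseudocount, the filter, the scaling, the libraries in the fit, the block and leaving out each library. Positions came from GENCODE M21 (GRCm38), promoters from RefSeq (GRCm38.p6), and coding stretches from the longest open reading frame of GENCODE M21 transcripts. Some genes of the lists and of the nearest patterns are counted but not reported here by name.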

Additional observations from a re-analysis of the deposited data

How the results depend on the processing

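Of the recomputed log2 changes of the 10 genes, 486 kept their direction and their side of the threshold, 16 lost a call, 5 gained one and 3 turned. Most of the 486 were changes that passed in neither fit. The main fit called only 2 changes, those of Elovl6 and Mid1ip1 with LDL, so all 16 losses were of these 2 calls. The direction turned for Acaca only, with oxLDL against Control, at 0.0708 without Control 3, 0.0505 without oxLDL 1 and 0.0126 without oxLDL 2 (-0.0944 to 0.0708 with 1 library left out). This gene did not pass in any fit.

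The count of 2 genes that fell with LDL was 7 with the replicate block, 1 with no filter on low values, 1 with median-ratio scaling, 1 with quantile normalization, 0 in a fit of the 6 compared libraries, and 0 to 1 when 1 library was left out. The count of 7 with the block was 1 to 7 when 1 library was left out, an alternative chosen after seeing the data.

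Over all genes the 45 called with LDL against Control became 115 with the block, 19 with no filter and 9 with 6 libraries, and 4 to 37 with 1 library left out. For oxLDL against Control the 2 became 17 with the block, 1 with a pseudocount of 5, 10 with no filter and 1 with 6 libraries, and 1 to 3 with 1 left out. For oxLDL against LDL the 14 became 35 with the block, 8 with no filter and 6 with 6 libraries, and 1 to 10 with 1 left out.

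Among the other pathway genes the 3 called with LDL became 1 with 6 libraries and 1 to 3 with 1 library left out. Those called with oxLDL were 1 against Control with the block (0 without it). Against LDL they were 2 with the block, 0 with no filter, with median-ratio scaling, with quantile normalization and with 6 libraries, and 0 to 1 with 1 left out (1 in the main fit). The ratios of Scd2 to Scd1 and of Fads2 to Fads1 kept their direction in all 66 recomputations. Scaling moved the median of all tested genes by under 0.01. The causes of lost calls were not tested. A pair of libraries left in a treatment is assumed to vary like the other treatments. With 3 libraries a treatment no single permutation test could pass, and unknown depth limits what can be said of genes near 0 TPM.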
